A study of Mus musculus with 4 samples.

Results

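Integrins are the receptors with which leukocytes hold on to other cells and to matrix. Each is a pair of an α and a β chain, and the choice of partner sets the ligand. This account follows 8 integrin genes of leukocytes, chosen by name from the 31053 genes of the count tables: Itgae, Itgb7, Itga4, Itgb1, Itgal, Itgb2, Itgax and Itgam. They were followed in 7 cell types gated on marker genes, none of which was an integrin gene.

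Their products fall into 3 families. The chains of Itgae (CD103) and Itgb7 form αE integrin, which binds E-cadherin on epithelia. The Itga4 chain pairs either with that of Itgb7, to bind MAdCAM-1 on gut and inflamed endothelium, or with that of Itgb1, to bind VCAM-1 and fibronectin. The products of Itgal, Itgam and Itgax each pair with that of Itgb2, giving LFA-1, Mac-1 and CD11c/CD18, which bind ICAM-1 among other ligands. In insulitis, T cells that enter the pancreas cross endothelium with the help of α4 and LFA-1 integrins, and αE integrin is known from tissue-resident T cells, regulatory T cells and cross-presenting dendritic cells.

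Droplet single-cell libraries that count 5′ transcript ends were made from 4 groups of female pre-diabetic mice, with 1 library in each group. All groups carried the floxed Ocab alleles (Ocab is another name of Pou2af1), so the controls, labelled Ocabfl/fl, are floxed animals without Cre, and the second genotype, labelled Ocabfl/fl.CD4-Cre, adds Cre recombinase driven by the Cd4 promoter, which is active in developing T cells and so reaches CD8 as well as CD4 T cells. The pancreas libraries held CD45+ cells sorted by flow cytometry at 12 weeks of age, from 4 mice in each group. The lymph node libraries held CD3 T cells taken by magnetic separation from the pancreatic lymph nodes at 8 weeks, from 5 mice in each group. The labels give 1 library for all mice of a group, and they do not name their strain.

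The 4 libraries held between 14851217 and 32798133 counts of unique molecular identifiers (UMIs), and 2845 to 6243 barcodes were kept in each, with a median of 3602 to 4613 UMIs. Between 65.1% and 78.5% of the kept barcodes fell in a gate, and 0 fell in more than 1. A T cell needed at least 2 UMIs of Cd3d, Cd3e and Cd3g. CD4-only T cells had a Cd4 UMI and none of Cd8a, Cd8b1 or Foxp3, CD8-only T cells a Cd8a or Cd8b1 UMI and none of Cd4 or Foxp3, and Foxp3-positive T cells a Foxp3 UMI without Cd8a or Cd8b1. The defining markers stood in their own gates: the T cell list was counted at 3826 to 5040 UMIs per 1000000 UMIs (CPM) in the T cell gates and at 5.54 and 8.03 CPM in pancreas B cells, while the B cell list was at 7335 and 7625 CPM in pancreas B cells and at 2.10 to 27.7 CPM in the T cell gates. In the lymph node libraries, labelled as T cells, B, NK, cDC1 and macrophage gates together caught 63 barcodes in control and 7 in CD4-Cre. Of the kept barcodes there, 72.4% and 78.5% fell in a gate, and the others were not identified. Pou2af1 itself was counted in CD4-only T cells at 5.66 CPM in pancreas control and 0.416 CPM in pancreas CD4-Cre, and at 6.69 CPM and with 0 UMIs in the lymph node, while pancreas B cells held 226 and 244 CPM. Between 15 and 56 kept barcode sequences occurred in both libraries of a pair.

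With 1 library in each group no test between groups was possible, and no p-value is given. Levels are UMIs of a gate summed and divided by all UMIs of that gate, with exact 95% Poisson intervals. Ratios have exact conditional binomial intervals. All intervals cover counting error only, not the spread between mice or preparations. A ratio is said to pass when it reached 1.5-fold with an interval that left out 0 on the log2 scale, where both libraries together held 20 UMIs of the gene or more. A tissue difference had to pass in the same direction in both genotypes. The share of all genes that passed the same rule is given beside each first count. Tissue, age, cell selection and mice differ together, so a tissue difference cannot be told apart from the others. Levels are compared between cell types and libraries, and not between genes, because UMIs at 5′ ends carry no common scale between genes. Shares among the UMIs of several genes are likewise read between gates and libraries, and their absolute size is not interpreted.

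All 8 genes are protein coding. On GRCm38 (GENCODE M21), the α4 gene Itga4 (ENSMUSG00000027009) lies on chromosome 2 from 79255426 to 79333123. The β1 gene Itgb1 (ENSMUSG00000025809) lies on chromosome 8 from 128685654 to 128733200, and the β7 gene Itgb7 (ENSMUSG00000001281) on chromosome 15 from 102215995 to 102231944. Itgae (ENSMUSG00000005947) lies on chromosome 11 from 73090583 to 73147446, and Itgb2 (ENSMUSG00000000290) on chromosome 10 from 77530252 to 77565708. The 3 partners of Itgb2 share chromosome 7, with Itgal (ENSMUSG00000030830) from 127296260 to 127335138, Itgam (ENSMUSG00000030786) from 128062640 to 128118491 and Itgax (ENSMUSG00000030789) from 128129547 to 128150657. The end of Itgam and the start of Itgax are 11056 bases apart. Itgb7 is on the - strand and the others on the + strand. A predicted gene, Gm49368, overlaps Itgam on the same strand, so counts of Itgam are uncertain to the extent that reads were split between them. Haspin overlaps Itgae, and Cerkl overlaps Itga4, each on the other strand.

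The sequences just upstream of Itga4, Itgb1 and Itgb7 are shown because the results below turn on these 3 chains: Itga4 and Itgb1 were higher together in pancreas T cells, and Itgb7, the other partner of α4, was not. They are the 250 bases before each start in RefSeq (GRCm38.p6), 5′ to 3′ on the gene's strand. Of the 8 members, 5 were matched in that table. Capitals mark matches, on either strand, to 4 short motifs: TGTGGT (the core read by RUNX factors), CACCC (read by KLF factors), GGGCGG (the GC box) and GAGGAA (read by PU.1). The windows are chr2:79255176-79255425 on the + strand for Itga4, chr8:128685404-128685653 on the + strand for Itgb1 and chr15:102231936-102232185 on the - strand for Itgb7.
Itga4: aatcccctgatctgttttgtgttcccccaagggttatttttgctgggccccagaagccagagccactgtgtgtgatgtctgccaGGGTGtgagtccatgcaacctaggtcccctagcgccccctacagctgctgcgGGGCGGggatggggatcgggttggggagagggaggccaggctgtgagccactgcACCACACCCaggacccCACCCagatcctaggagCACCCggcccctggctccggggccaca
Itgb1: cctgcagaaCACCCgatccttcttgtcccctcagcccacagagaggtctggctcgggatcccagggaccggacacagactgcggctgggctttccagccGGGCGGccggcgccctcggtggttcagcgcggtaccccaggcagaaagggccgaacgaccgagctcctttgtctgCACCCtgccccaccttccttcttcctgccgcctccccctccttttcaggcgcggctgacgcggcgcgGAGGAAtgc
Itgb7: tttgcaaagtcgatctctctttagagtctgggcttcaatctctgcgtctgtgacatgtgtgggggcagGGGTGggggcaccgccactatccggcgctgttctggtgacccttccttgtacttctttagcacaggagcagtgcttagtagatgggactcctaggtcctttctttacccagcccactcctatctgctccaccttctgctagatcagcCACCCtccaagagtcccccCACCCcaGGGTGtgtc

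CACCC was matched 4 times upstream of Itga4, 2 times upstream of Itgb1 and 4 times upstream of Itgb7. At least 1 match was present in 52.0% of the 32851 windows of the same length in the table. The GC box was matched once in Itga4 and once in Itgb1 and not in Itgb7, against 32.7% of all windows. TGTGGT was matched once, upstream of Itga4, where it shares bases with a CACCC match, and 14% of all windows held it. GAGGAA was matched once, upstream of Itgb1, against 23.3% of all windows. The windows held 64.0% G and C for Itga4, 68.0% for Itgb1 and 56.0% for Itgb7, and the median of all windows was 52.4%. These are matches of letters and say nothing about binding.

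Across the pancreas, every member had its own order of cell types. Itgae was high in Foxp3-positive T cells, at 134 CPM (105 to 170) in control and 138 CPM (115 to 165) in CD4-Cre. CD8-only T cells held 74.8 CPM (63.2 to 88.0) and 57.6 CPM (49.5 to 66.7), and cDC1, the cross-presenting dendritic cells, held 64.9 CPM (46.4 to 88.4) and 74.1 CPM (56.0 to 96.3). CD8-only T cells and cDC1 were not separated from each other beyond counting error in either library, and Foxp3-positive T cells stood above both in both. The other 4 gates were at 8.22 CPM or below, with 3.78 and 1.66 CPM in CD4-only T cells and 0.504 and 0.854 CPM in B cells. NK cells held 2 UMIs in control and 0 in the 271 barcodes of CD4-Cre, where the Poisson interval reached up to 3.09 CPM.

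Itgae was counted in few barcodes of the gates in which it was high. In pancreas Foxp3-positive T cells, 27 of 108 control barcodes and 47 of 185 CD4-Cre barcodes held an Itgae UMI. Of CD8-only barcodes, 16.6% and 13.9% did. In cDC1, 11 of 34 control and 17 of 50 CD4-Cre barcodes held one, and 1 control barcode held 12 of the 40 UMIs. After thinning each barcode to 1000 UMIs, the CD8-only shares were 8.11% (5.68 to 11.2) and 6.20% (4.47 to 8.35), with 2 shallower barcodes left out in each library. B cells, in which little Itgae is known, had 0 of 907 thinned barcodes in control and 0.148% in CD4-Cre, so the shares in CD8-only T cells stood above that background. Median depths were 3798 and 3938 UMIs in CD8-only T cells and 3562 and 3422 in B cells.

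Itgb7, whose product pairs with αE and α4, was counted in every gate, with T cells highest. Foxp3-positive T cells held 478 CPM (420.0 to 541) in control and 579 CPM (529 to 631) in CD4-Cre, CD4-only T cells 419 and 441 CPM, and CD8-only T cells 342 and 378 CPM. NK cells followed at 247 and 289 CPM, cDC1 at 188 and 270.0 CPM and B cells at 167 and 170.0 CPM. Macrophages were far below, at 20.6 CPM (12.6 to 31.7) and 34.0 CPM (22.8 to 48.8), and each macrophage interval lay under those of the 6 other gates of its library. Foxp3-positive and CD4-only T cells were not separated in control and were separated in CD4-Cre.

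Among the 7 gates, Itga4 was highest in T cells of the pancreas, at 207 to 304 CPM over the 3 T cell gates and both libraries. CD8-only T cells held 304 CPM (280.0 to 329) in control and 263 CPM (246 to 282) in CD4-Cre, and Foxp3-positive T cells 263 and 296 CPM, with overlapping intervals in both libraries. B, NK, cDC1 and macrophage gates lay between 76.1 and 149 CPM. Outside the 7 gates, pancreas neutrophils held 195 CPM (151 to 248) in control and 265 CPM (194 to 353) in CD4-Cre. Their intervals overlapped those of CD4-only and Foxp3-positive T cells in both libraries, and of CD8-only T cells in CD4-Cre alone.

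Itgb1 was highest in NK cells, at 791 CPM (729 to 856) in control and 737 CPM (689 to 788) in CD4-Cre. The 3 T cell gates held 323 to 363 CPM in control and 264 to 419 CPM in CD4-Cre. In control, Foxp3-positive and CD8-only T cells were not separated. cDC1 held 162 and 115 CPM, macrophages 128 and 125 CPM, and B cells the lowest level, 84.4 CPM (75.6 to 93.9) and 83.4 CPM (76.2 to 91.1). NK cells thus held more than 1.5 times the level of any T cell gate in both pancreas libraries. NK cells also carried other β1 partners: Itga1, a collagen receptor chain, was at 75.1 and 62.8 CPM, and Itga2, another, at 73.8 and 58.6 CPM. The NK gate cannot separate NK cells from type 1 innate lymphoid cells, which share Ncr1.

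Among the 7 gates, both LFA-1 genes were highest in NK cells as well. Itgal was at 280.0 CPM (243 to 319) and 297 CPM (267 to 330) in NK cells, at 174 and 133 CPM in CD8-only T cells and at 42.1 and 38.3 CPM in B cells. Itgb2 was at 666 CPM (610.0 to 727) and 655 CPM (610.0 to 703) in NK cells, at 379 and 325 CPM in CD8-only T cells and lowest in B cells, at 77.3 and 87.7 CPM. Macrophages and cDC1 were near the low end for Itgal, at 21.1 to 48.7 CPM. For Itgb2 they held 193 to 297 CPM, and cDC1 in control were next to last, above B cells.

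The other partners of Itgb2 were highest in myeloid cells. Itgax was counted at 109 CPM (84.3 to 138) and 113 CPM (89.9 to 139) in cDC1, at 102 and 62.1 CPM in macrophages and at 86.7 and 73.7 CPM in NK cells, and the T cell gates held 3.15 to 11.3 CPM. In the order of Itgax levels, cDC1, macrophages and NK cells held the first 3 places in both libraries, and all 3 stood above every T cell gate and B cells beyond counting error. The 3 overlapped in control, while in CD4-Cre the cDC1 interval lay above that of macrophages (46.5 to 81.3). Itgam was at 71.9 CPM (56.1 to 90.9) and 64.5 CPM (48.6 to 83.9) in macrophages and at 64.7 and 32.7 CPM in NK cells. Of the UMIs of the 3 α chains that pair with Itgb2, Itgal made up 94.5% or more in pancreas CD4-only T cells, 64.9% and 73.7% in NK cells and 15.1% and 14.3% in macrophages. Pancreas neutrophils, gated for context on S100a8 and S100a9, held Itgam at 175 and 213 CPM, Itgal at 358 CPM (297 to 428) and 282 CPM (209 to 373) and Itgb2 at 763 and 749 CPM, the last 2 genes overlapping NK cells in their intervals, and cDC2, gated on Cd209a, Clec10a and Mgl2, held Itgax at 157 and 174 CPM.

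**Figure D1:**
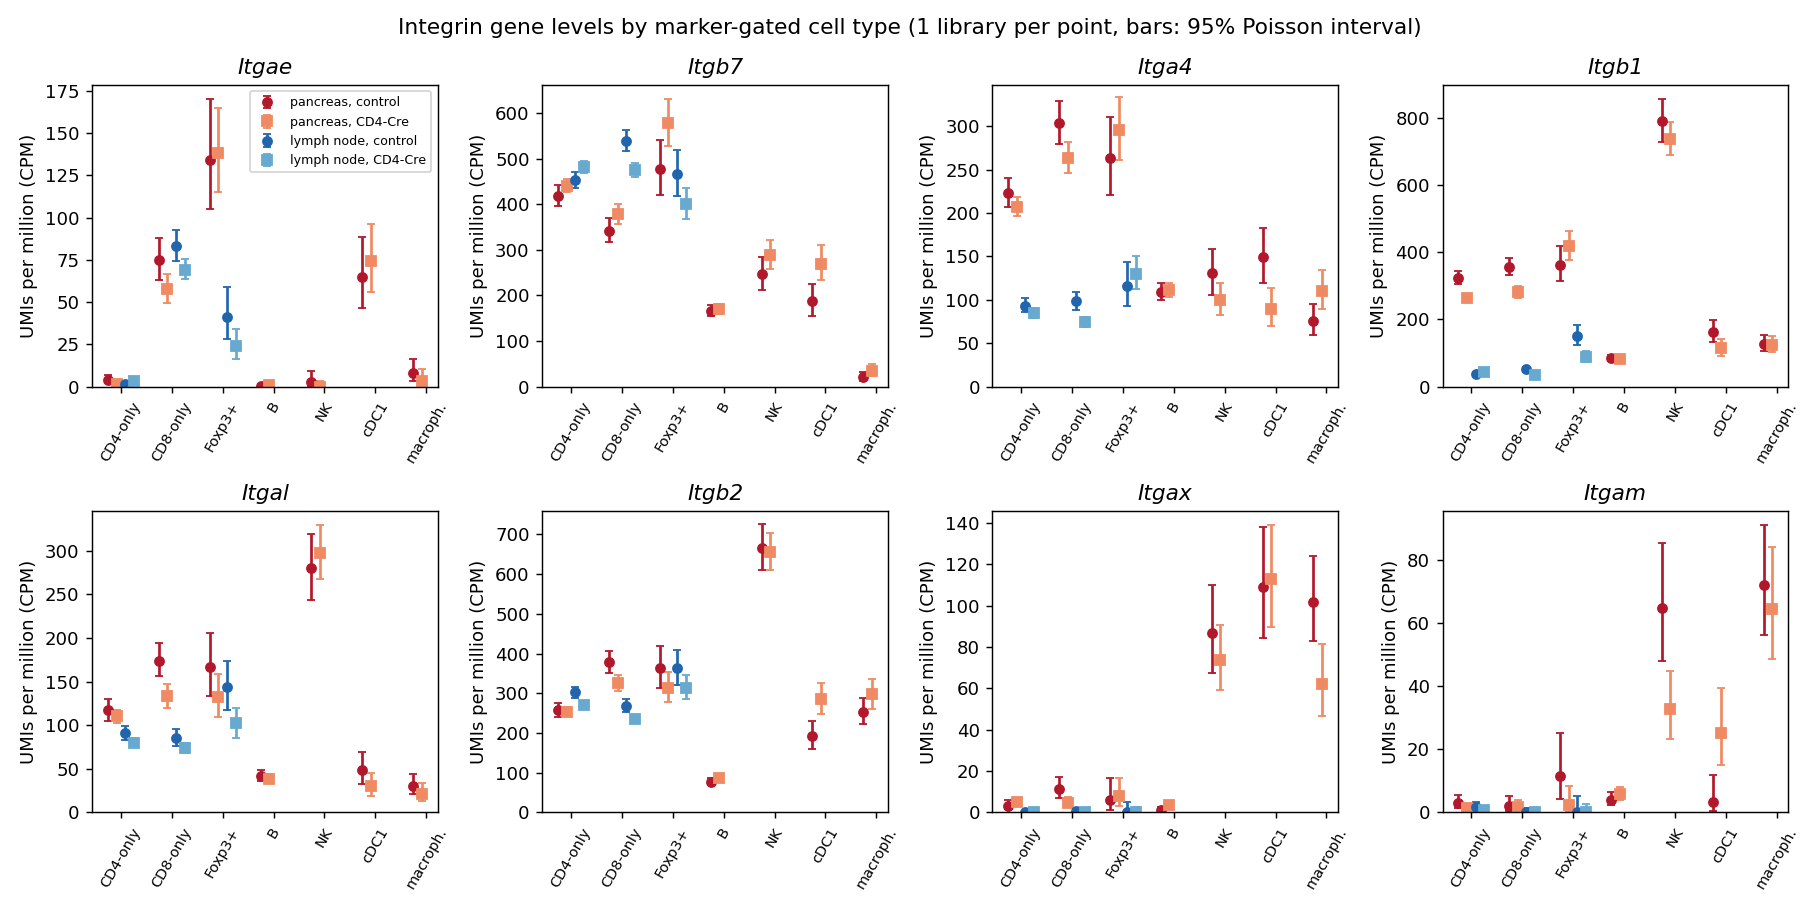
Level of each integrin gene (y axis, CPM, from 0) in each marker gate (x axis), 1 point per library with its 95% Poisson interval; lymph node libraries (blue) are shown for T cell gates. Itgae stands at 134 and 138 CPM in pancreas Foxp3-positive T cells, Itgb1 at 791 and 737 CPM in NK cells, and lymph node T cells sit far below pancreas T cells in Itgb1 and Itga4.

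The tissue comparison asked how integrin genes of T cells in the pancreas differed from those in its draining lymph node. In CD4-only T cells, the α4β1 pair was higher in the pancreas and 0 of the other members passed. Of 6 members tested, 2 passed as higher in pancreas in both genotypes, against 8.33% of all 9759 genes tested, and 0 passed as lower, against 2.19% of all genes. Itgax and Itgam had too few UMIs to be tested in both genotypes in any T cell gate. In CD4-only T cells, Itgax had 10 and 35 UMIs in the pancreas and 0 in both lymph node libraries. Without the exclusion of barcodes with markers of another lineage, 4 members passed as higher, with Itgae and Itgax beside Itga4 and Itgb1. With Foxp3 barcodes included in the gate 3 passed, with Itgae at log2 ratios of 2.11 and 1.80.

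Itgb1 stood at 323 CPM (304 to 344) in pancreas control and 264 CPM (252 to 276) in pancreas CD4-Cre, against 38.7 CPM (33.8 to 44.2) and 44.1 CPM (40.2 to 48.2) in the lymph node. Both pancreas libraries were above both lymph node libraries, and no interval overlapped across tissues. The log2 ratio was 3.06 (2.85 to 3.28) in control, or 8.35-fold, and 2.58 (2.44 to 2.73) in CD4-Cre, or 5.99-fold. In control 1.63% of the genes tested and in CD4-Cre 2.64% were as far or farther in that direction. Itga4 stood at 223 and 207 CPM in the pancreas against 93.4 and 84.6 CPM in the lymph node, with log2 ratios of 1.26 (1.09 to 1.42) and 1.29 (1.17 to 1.41). Itgb7 was at 419 and 441 CPM against 453 and 481 CPM, log2 ratios of -0.11 and -0.12. Itgb2 had log2 ratios of -0.23 and -0.09 and Itgal of 0.36 and 0.46, all under 1.5-fold. Itgae rested on 8 to 34 UMIs per library and pointed in opposite directions, with log2 ratios of 1.42 (0.01 to 2.92) in control but -0.90 (-1.99 to 0.08) in CD4-Cre.

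For CD8-only T cells, 3 of 6 members passed as higher in pancreas, against 13.3% of 9274 genes, and 0 as lower, against 2.32%. Itgb1 was at 357 CPM (331 to 384) and 281 CPM (263 to 300) in the pancreas against 52.0 and 34.7 CPM in the lymph node, with log2 ratios of 2.78 (2.55 to 3.01) in control and 3.02 (2.82 to 3.22) for CD4-Cre. Itga4 was at 304 and 263 CPM against 98.2 and 74.4 CPM, log2 ratios of 1.63 (1.44 to 1.82) and 1.82 (1.67 to 1.98). Itgal, the α chain of LFA-1, was at 174 and 133 CPM against 85.4 and 73.7 CPM, with log2 ratios of 1.03 (0.81 to 1.25) and 0.85 (0.67 to 1.04), the latter under 2-fold. Its partner Itgb2 had ratios of 0.49 and 0.47, under 1.5-fold. The NK marker list, of cells high in Itgb1 and Itgal, was at 272 and 229 CPM in this gate of the pancreas, 41.8 and 38.8 CPM in the lymph node and 3612 and 3458 CPM in NK cells. Its part in the ratios was not tested. Itgb7 went the other way, from 539 and 475 CPM in the lymph node to 342 and 378 CPM in the pancreas, with log2 ratios of -0.66 (-0.78 to -0.53) and -0.33 (-0.42 to -0.23), and reached 1.5-fold in control alone.

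Itgae in CD8-only T cells was at 74.8 CPM (63.2 to 88.0) in pancreas control and 57.6 CPM (49.5 to 66.7) in pancreas CD4-Cre, close to 83.1 CPM (74.3 to 92.6) and 69.2 CPM (63.5 to 75.3) in the lymph node. The log2 ratios were -0.15 (-0.44 to 0.14) and -0.26 (-0.52 to -0.02), and the states described below differed under this total. Scaled by TMM library sizes (edgeR), the ratios of this gate shifted by -0.13 in control and -0.21 in CD4-Cre, where the medians over all genes had been 0.12 and 0.20. Relative to that shift, Itgal in CD4-Cre stood at 0.64, still above 1.5-fold. Within naive-gated barcodes, as the states were first drawn, it turned to -1.05 in CD4-Cre, and within antigen-experienced-gated ones to -0.28. The former rested on 57 pancreas and 114 lymph node barcodes and the latter on 207 and 33.

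In Foxp3-positive T cells, 3 of 6 members passed as higher in pancreas, against 6.76% of 6525 genes, and 0 as lower, against 1.93%. Itgae was at 134 CPM (105 to 170) and 138 CPM (115 to 165) in the pancreas and at 41.4 CPM (27.9 to 59.1) and 24.1 CPM (16.5 to 34.0) in the lymph node. The 2 pancreas libraries lay close together and well above both lymph node libraries, with log2 ratios of 1.70 (1.06 to 2.37) and 2.52 (1.95 to 3.13). Thinned to 1000 UMIs a barcode the ratios were 1.10 and 2.85, and Itgae no longer passed in both genotypes. Itga4 was at 263 and 296 CPM against 116 and 130 CPM, log2 ratios of 1.18 (0.78 to 1.59) and 1.18 (0.90 to 1.47). Itgb1 was at 363 and 419 CPM against 150.0 and 88.2 CPM, log2 ratios of 1.27 (0.92 to 1.62) and 2.25 (1.94 to 2.56). Itgb2 was equal in both tissues, at 363 and 363 CPM in control and 314 and 314 CPM in CD4-Cre. Itgb7 was at 478 and 579 CPM against 467 and 400 CPM, log2 ratios of 0.03 (-0.21 to 0.28) and 0.53 (0.35 to 0.71).

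**Figure D2:**
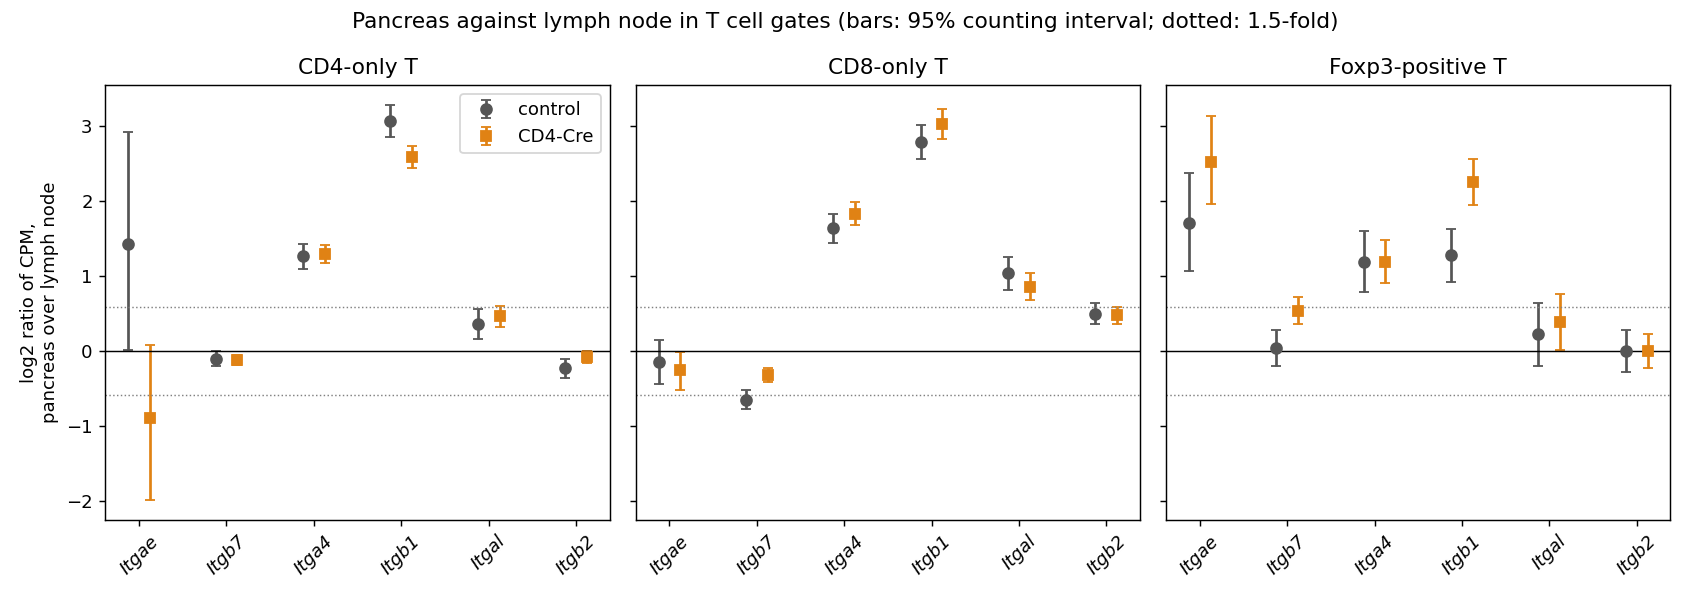
The log2 ratio of pancreas over lymph node (y axis) for 6 integrin genes (x axis) in the 3 T cell gates, control and CD4-Cre, with 95% counting intervals; dotted lines mark 1.5-fold. Itgb1 and Itga4 lie above 1.5-fold in all gates and both genotypes, Itgal in CD8-only and Itgae in Foxp3-positive T cells.

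Because Itgb1 and Itgb7 compete for the α4 chain as partners, the split of their UMIs was followed. This is a share of 2 genes counted in the same barcodes and is not a ratio of proteins. In lymph node CD4-only T cells, Itgb1 made up 7.88% (6.90 to 8.94) of the UMIs of both genes in control and 8.40% (7.69 to 9.14) in CD4-Cre. In the pancreas it made up 43.5% (41.5 to 45.6) and 37.5% (36.1 to 38.8). CD8-only T cells went from 8.80% and 6.80% in the lymph node to 51.0% and 42.6% in the pancreas, and Foxp3-positive T cells from 24.4% and 18.1% to 43.2% and 42.0%. Among pancreas leukocytes outside the T cells, macrophages held the highest share, 86.2% and 78.7%, NK cells 76.2% and 71.8%, and B cells 33.6% and 32.9%.

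**Figure D3:**
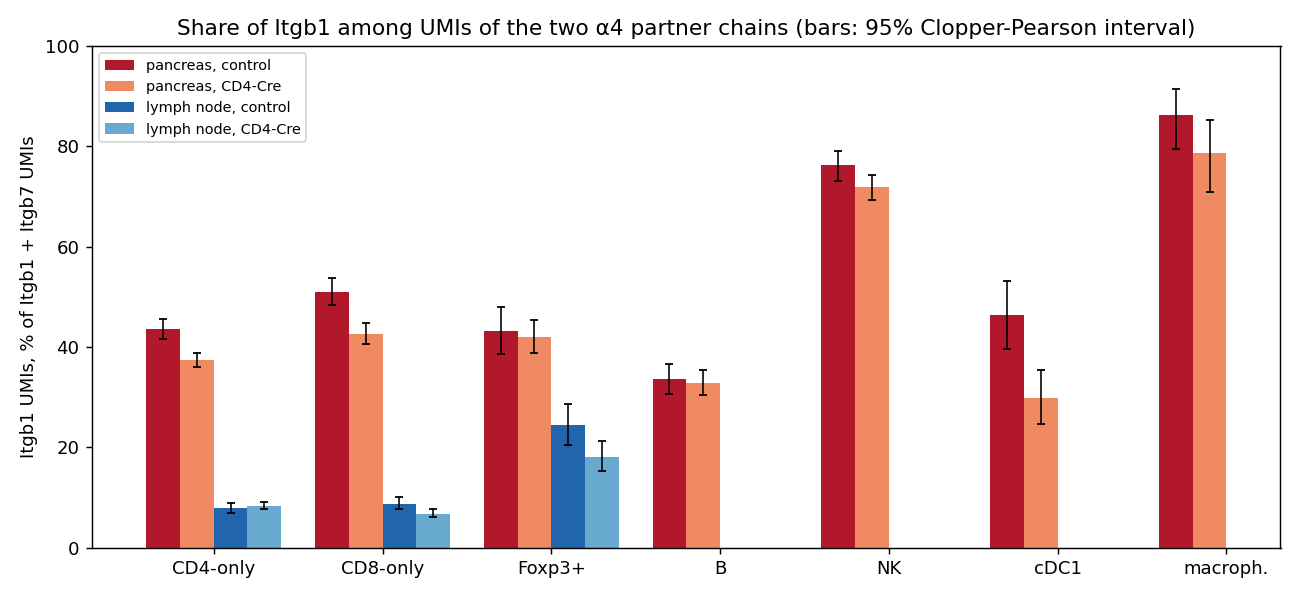
Itgb1 UMIs as a percentage of Itgb1 and Itgb7 UMIs together (y axis, 0 to 100) by gate (x axis) and library, with 95% Clopper-Pearson intervals. T cells of the lymph node hold 6.80% to 24.4% and T cells of the pancreas 37.5% to 51.0%; other lymph node gates are not shown.

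The tissues differed in the make-up of their T cells, so the members were also followed within states. A naive-gated barcode had at least 2 UMIs over a list of naive T cell genes that includes Ccr7, Lef1 and S1pr1 and none over Ccl5, Nkg7, S100a4, S100a6, Cxcr3, Cxcr6 and Gzmk. An antigen-experienced-gated barcode had at least 2 UMIs over the second list and at most 1 over the first. As first drawn, these rules left 7.74% and 8.09% of lymph node CD8-only barcodes naive-gated. The states of CD8-only T cells were therefore drawn again without Nkg7 and Cxcr6, a choice made after seeing the data. The values for CD8-only states below use it.

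Naive-gated barcodes made up 88.9% and 90.2% of lymph node CD4-only T cells and 64.4% and 67.8% of those of the pancreas. They made up 86.6% and 83.0% of CD8-only T cells in the lymph node and 19.7% and 41.6% in the pancreas, and in Foxp3-positive T cells 58.5% and 63.8% against 22.2% and 20.5%. Antigen-experienced-gated barcodes were 5.97% or fewer of every lymph node T cell gate, with 5 to 19 barcodes, too few for a level.

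Within the pancreas, Itgb1 was the member that differed most between states in conventional T cells. In CD4-only T cells it was at 46.2 CPM in naive-gated and 732 CPM in antigen-experienced-gated barcodes of control, and at 54.8 and 667 CPM in CD4-Cre, with log2 ratios of 3.99 (3.64 to 4.34) and 3.61 (3.39 to 3.83). Of the 1028 Itgb1 UMIs of this gate in control, 328 lay in 99 antigen-experienced-gated barcodes and 87 in 534 naive-gated ones. Most, 613 UMIs, lay in the 196 barcodes in neither state, at 725 CPM (669 to 785), and in CD4-Cre 1124 of 1906 lay in 423 such barcodes, at 589 CPM (555 to 625). Barcodes outside both states were thus far above naive-gated ones in Itgb1. CD8-only T cells had levels of 74.3 and 483 CPM in control and of 39.2 and 409 CPM with Cre, log2 ratios of 2.70 (2.12 to 3.35) and 3.38 (2.92 to 3.88).

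Itga4, Itgal and Itgb2 were higher in antigen-experienced-gated barcodes of both conventional gates, by log2 ratios of 1.25 to 1.89. Itgb2 in CD8-only T cells of control went from 143 to 527 CPM, and of CD4-Cre from 163 to 532 CPM. Itgb7 stayed level, with log2 ratios of -0.08 and -0.08 in CD4-only and -0.10 and -0.29 in CD8-only T cells. S100a4 and S100a6 are in the gating list and no member is, and the contrast between states is a description within each library.

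Itgae followed the states in another way. In Foxp3-positive T cells of the pancreas, 53 UMIs lay in 50 antigen-experienced-gated barcodes of control and 0 in 24 naive-gated ones, and 87 lay in 63 against 0 in 38 in CD4-Cre. Measured against a floor of 3 UMIs, the levels of 227 and 287 CPM were at least 2.67 and 3.47 higher on the log2 scale. In pancreas CD8-only T cells, Itgae was at 29.7 CPM in naive-gated and 122 CPM in antigen-experienced-gated barcodes of control, against 44.9 and 105 CPM for CD4-Cre, log2 ratios of 2.03 (1.10 to 3.13) and 1.22 (0.70 to 1.75). In the lymph node the naive-gated CD8-only barcodes held 94.3 and 78.3 CPM, more than those of the pancreas. The near-equal totals of both tissues thus held different parts: 311 of 324 Itgae UMIs lay in naive-gated barcodes in lymph node control, and 111 of 146 in antigen-experienced-gated barcodes in pancreas control.

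Itgb1 and Itgb2 in Foxp3-positive T cells split from the conventional pattern. Itgb1 was at 273 and 243 CPM in naive-gated and 249 and 181 CPM in antigen-experienced-gated barcodes, with intervals of the log2 ratio that included 0 in both libraries. Both states lay below the whole gate (363 and 419 CPM), and barcodes in neither state, 31.5% and 45.4% of the gate, held 530.0 CPM (435 to 640.0) and 620.0 CPM (550.0 to 697). Itgb2 was higher in antigen-experienced-gated barcodes, by 1.19 (0.42 to 2.05) and 1.17 (0.49 to 1.91).

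Between tissues within naive-gated barcodes, the Itgb1 difference kept its direction. In CD4-only and CD8-only T cells it was smaller than in the whole gate, and in Foxp3-positive T cells it was larger in control and smaller in CD4-Cre. In CD4-only T cells it was at 46.2 and 54.8 CPM in the pancreas against 23.5 and 28.0 CPM in the lymph node, a log2 ratio of 0.97 in each genotype (0.56 to 1.39 in control, 0.71 to 1.22 with Cre). In CD8-only T cells the ratios were 0.99 (0.31 to 1.62) and 0.65 (0.12 to 1.15), and in Foxp3-positive T cells 2.26 (1.37 to 3.15) and 1.69 (0.99 to 2.36). Itga4 had ratios of 0.51 and 0.95 in CD4-only, 0.25 and 0.81 in CD8-only and 1.05 and 1.36 in Foxp3-positive T cells, and passed in both genotypes in the last alone. Itgal was close to level in naive-gated CD4-only T cells, at 0.04 (-0.23 to 0.30) and -0.01 (-0.20 to 0.19). States were drawn without thinning, and a rule of 0 UMIs is met more easily at lower depth. Whole CD4-only gates had median depths of 3459 and 3466 UMIs in the pancreas against 4544 and 4270 in the lymph node. CD8-only gates had 3798 and 3938 against 5515 and 5384. The part of depth in the tissue ratios of naive-gated barcodes was not tested.

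Itgb2 and Itgae were lower in naive-gated barcodes of the pancreas. Itgb2 had log2 ratios of -0.76 (-0.93 to -0.58) and -0.51 (-0.63 to -0.40) in CD4-only, -0.90 (-1.35 to -0.48) and -0.51 (-0.74 to -0.28) in CD8-only and -0.97 (-1.82 to -0.23) and -0.81 (-1.52 to -0.16) in Foxp3-positive T cells, and reached 1.5-fold in both genotypes in the last. Itgae in CD8-only T cells had ratios of -1.67 (-2.74 to -0.77) and -0.80 (-1.27 to -0.37).

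**Figure D4:**
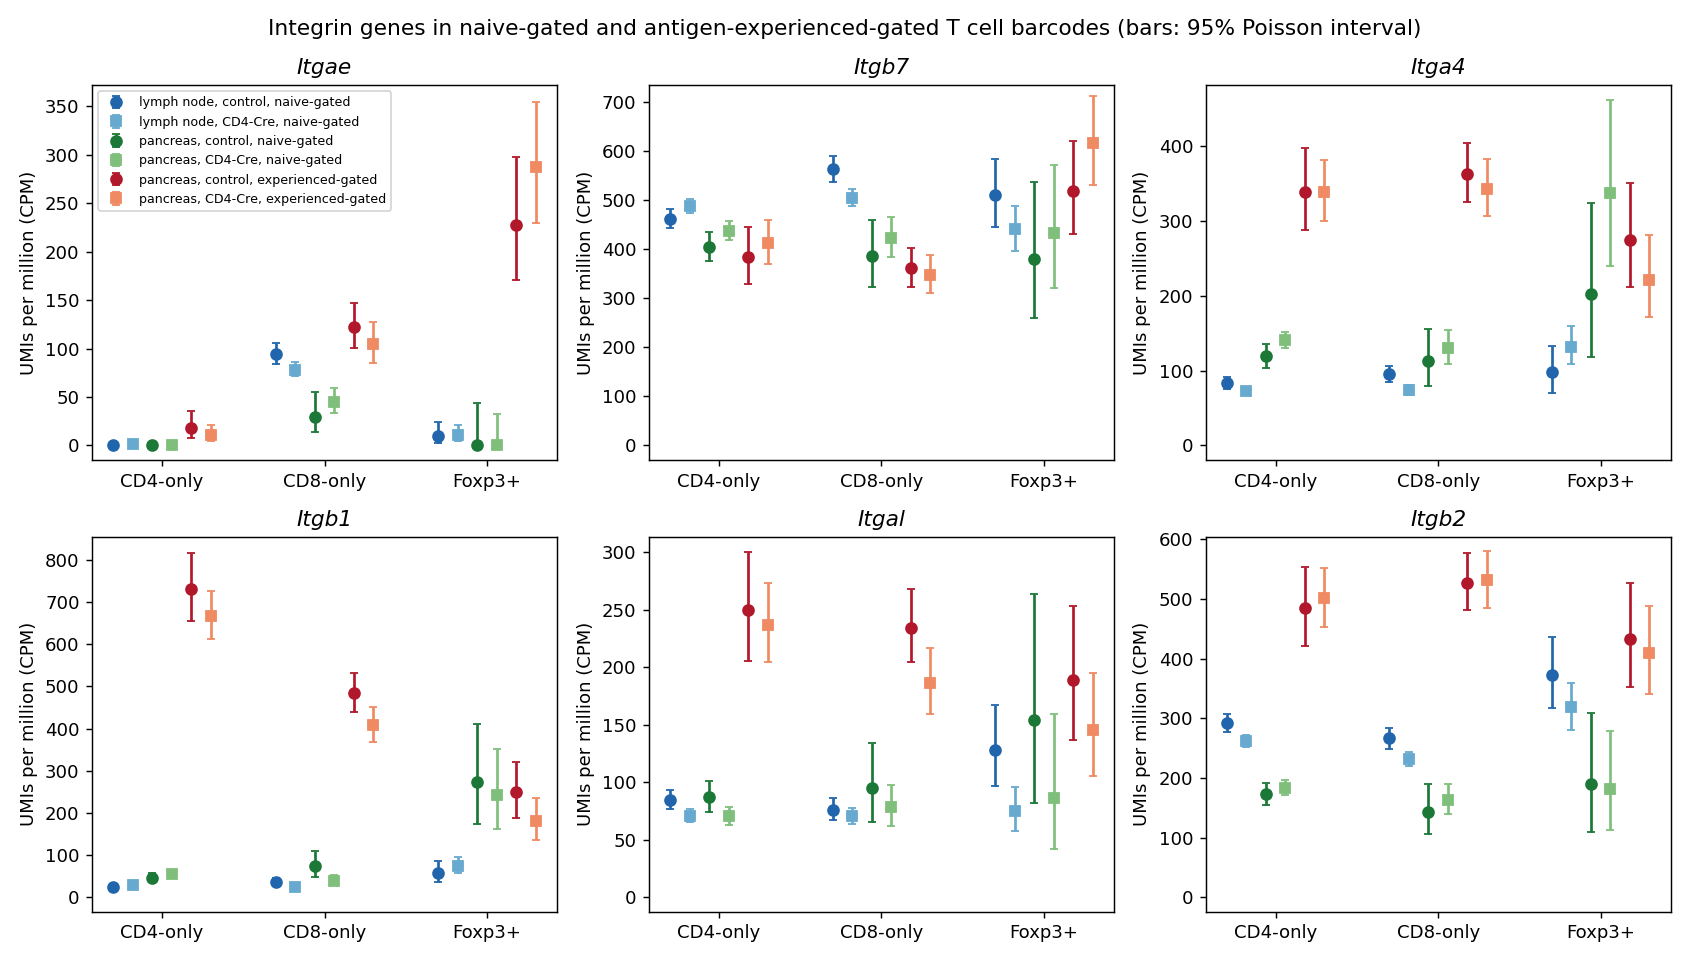
Level of 6 integrin genes (y axis, CPM, with 95% Poisson intervals) in naive-gated barcodes of the lymph node (blue) and pancreas (green) and in antigen-experienced-gated barcodes of the pancreas (red), by T cell gate (x axis). Itgae in Foxp3-positive T cells stands at 227 and 287 CPM in the antigen-experienced-gated barcodes with 0 UMIs in the naive-gated ones of the pancreas, while Itgb7 differs little between states.

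Whether partner chains occurred in the same barcodes was read after thinning each barcode to 1000 UMIs. Itgb1 was more frequent in pancreas CD4-only barcodes with an Itga4 UMI than in those without, in both libraries. Of the barcodes with an Itga4 UMI, 40.3% (32.6 to 48.3) also held Itgb1 in control, against 13.8% (11.3 to 16.6) of those without, and in CD4-Cre 34.1% (29.0 to 39.6) against 13.5% (11.8 to 15.2). For Itgb7 the shares were 32.1% against 35.1% in control and 39.9% against 34.7% in CD4-Cre, with overlapping intervals. Itgb7 and Itgb1, whose products form no dimer with each other, were read as a comparison pair in the same gate. Of Itgb7 barcodes, 21.1% (18.1 to 24.4) held Itgb1 in CD4-Cre against 14.8% (12.9 to 16.9) of those without, with intervals apart, and 20% against 18.3% in control, with overlapping intervals. Barcodes can thus share 2 chains that do not pair. Itga4 and Itgb1 were both higher in antigen-experienced-gated barcodes of this gate and Itgb7 was level, so the comparison pair was not matched for state. The part of state make-up in the shares of Itga4 and Itgb1 was not tested. In CD8-only T cells of the pancreas, the Itga4 barcodes held Itgb1 in 30.8% against 16.1% in CD4-Cre and in 31.4% against 27.6%, with overlapping intervals, in control. Of pancreas CD8-only barcodes with Itgae, 50% (32.4 to 67.6) held Itgb7 in control, against 27.5% (23.1 to 32.3) of those without. In CD4-Cre these shares were 47.5% against 35.2%, with overlapping intervals. In the lymph node they were 55.4% against 40.2% in control and 35.4% against 37.5% in CD4-Cre, with overlapping intervals. Itgae and Itgb1, whose products form no dimer, were compared in pancreas CD8-only T cells too. Itgb1 was held by 41.2% of control barcodes with Itgae against 27.5% without, and by 12 of 40 against 113 of 605 in CD4-Cre. These intervals overlapped, and an excess particular to partner chains was not shown. Itgal and Itgb2 showed no such difference beyond overlapping intervals in any gate or library compared. Cells of 1 library are no replicates, so these shares describe the library.

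Other genes of integrin biology were read from 4 lists. Over all genes tested, 8.33% were higher in the pancreas in CD4-only, 13.3% in CD8-only and 6.76% in Foxp3-positive T cells. Of 14 other integrin chains, 3 could be tested in each T cell gate and 2 were higher in the pancreas in each. Itgav, the αV chain, was higher in all 3 gates, with log2 ratios of 0.62 to 1.29. Itga6, a laminin receptor chain, was higher in CD4-only T cells (109 and 111 CPM against 60.7 and 58.1 CPM). Itga1, which marks resident CD8 T cells and pairs with β1, was at 56.9 and 25.2 CPM in pancreas CD8-only T cells against 1 and 6 UMIs in the lymph node. Itgb8, which pairs with αV and releases active TGF-β, was at 40.3 and 35.4 CPM in pancreas Foxp3-positive T cells against 6.90 and 6.03 CPM, a log2 ratio of 2.55 in both genotypes.

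Among 15 genes of integrin activation, all 15 were tested in CD4-only T cells and 0 passed in either direction, with median log2 ratios of -0.11 and 0.05 against -0.05 and 0.07 over all genes. Of CD8-only T cell ratios, 4 of 15 were higher and 0 lower, against 13.3% and 2.32% of all genes. Tln1, whose product talin opens integrins, had log2 ratios of 0.74 and 0.64, Zyx, a focal adhesion protein, 1.01 and 0.80, Rapgef1, an activator of RAP1, 1.79 and 0.90, and Vcl, vinculin, 1.41 and 1.98. In Foxp3-positive T cells 2 of 14 tested, Tln1 and Zyx, were higher and 0 lower, against 6.76% and 1.93% of all genes.

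Of 8 ligand genes, 3 or 4 were tested in each gate. Icam1, the ligand of LFA-1, was higher in pancreas CD8-only T cells (79.4 and 75.1 CPM against 45.6 and 37.6 CPM) and Foxp3-positive T cells (97.9 and 86.7 CPM against 33.1 and 30.9 CPM). Cdh1, the E-cadherin gene and ligand of αE integrin, was higher in CD8-only T cells, from 32 and 27 UMIs against 3 and 8. Fn1, the fibronectin gene, passed in all 3 gates with 0 UMIs in the lymph node. It was also counted in pancreas B cells at 11.1 and 50.8 CPM and in cDC2 at 1303 and 1712 CPM, and the part of free RNA in the T cell counts was not tested.

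Of 10 regulators of Itgae and homing genes, Runx3, a factor known to act on Itgae, was higher in the pancreas in CD4-only (log2 ratios of 0.84 and 0.74) and Foxp3-positive T cells (1.52 and 1.88). Its ratios in CD8-only T cells were 0.46 and 0.64 and it passed in CD4-Cre alone. Smad3, a mediator of TGF-β, was higher in CD8-only T cells (1.11 and 1.05). Ccr9, a gut homing receptor, was lower there, at 17.9 and 43.7 CPM against 174 and 150.0 CPM, with log2 ratios of -3.28 and -1.78. Cxcr6, a receptor of resident T cells that also belongs to the list behind the antigen-experienced gate, was higher in all 3 gates, by 1.91 to 3.95. In these lists 2 of 10, 2 of 10 and 2 of 8 genes tested were higher in CD4-only, CD8-only and Foxp3-positive T cells, and 0, 1 and 0 lower. Over all genes, 8.33%, 13.3% and 6.76% were higher and 2.19%, 2.32% and 1.93% lower.

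The genotype comparison asked whether the integrin genes differed between CD4-Cre and control libraries. In the T cells of the pancreas, the counts of members that passed lay near the shares of all genes. With so few members they show nothing particular to integrin genes. In CD4-only T cells 0 of 8 members passed, against 4.72% of all genes in either direction, and 7 of the 8 log2 ratios had intervals that included 0. Itgb1 was at 264 CPM in CD4-Cre and 323 CPM in control, a log2 ratio of -0.29 (-0.40 to -0.18). In Foxp3-positive T cells 0 of 6 passed, against 6.21%, with Itgae at 0.04 (-0.40 to 0.48) and Itgb7 at 0.28 (0.05 to 0.50).

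In pancreas CD8-only T cells 1 of 7 members passed, against 7.46% of all genes. This was Itgax, at 4.53 CPM (14 UMIs) in CD4-Cre and 11.3 CPM (22 UMIs) in control, a log2 ratio of -1.31 (-2.39 to -0.28). A single barcode held 12 of the 22 control UMIs, and without the highest barcode of each library the ratio was -0.81 and did not pass. Itgae (-0.38), Itga4 (-0.21), Itgb1 (-0.34), Itgal (-0.39) and Itgb2 (-0.22) were all lower in CD4-Cre by less than 1.5-fold, with intervals that left out 0, and Itgb7 was at 0.14 (0.01 to 0.28). The state make-up differed beside this: 30% of CD8-only barcodes were antigen-experienced-gated in CD4-Cre and 52.5% in control. Within antigen-experienced-gated barcodes, Itgae was at -0.22 (-0.63 to 0.19), Itga4 at -0.08 (-0.31 to 0.14) and Itgb2 at 0.01 (-0.17 to 0.20), while Itgb1 was at -0.24 (-0.44 to -0.04) and Itgal at -0.33 (-0.63 to -0.03). The exocrine genes were at 2557 CPM in this gate of CD4-Cre and 81.0 CPM in control, and their part in the ratios was not tested beyond totals that left them out, under which Itgax was again the only member to pass. Itga1 fell from 56.9 to 25.2 CPM, by a log2 ratio of -1.17 (-1.61 to -0.74).

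Outside the T cells of the pancreas, the counts that passed were also too small to be set apart from the shares of all genes. In B cells 1 of 7 passed, against 6.22% of all genes, namely Itgax with 21 UMIs against 4, a log2 ratio of 1.83 (0.27 to 3.84), and the 6 others had intervals that included 0. Without the exclusion of barcodes with other lineages' markers the Itgax ratio was -0.22. In NK cells 1 of 7 passed, against 6.16%, namely Itgam at 32.7 CPM against 64.7 CPM, a log2 ratio of -0.99 (-1.63 to -0.35) from 39 and 50 UMIs. In cDC1 2 of 8 passed, against 14.3%. Itga4 was lower at 90.0 CPM against 149 CPM, a log2 ratio of -0.73 (-1.20 to -0.26), and Itgam higher with 19 UMIs against 2. This gate held 50 and 34 barcodes, and with each barcode thinned to 1000 UMIs the Itga4 ratio was 0.61. In macrophages 1 of 7 passed, against 9.78%, namely Itgax at 62.1 CPM against 102 CPM, a log2 ratio of -0.71 (-1.22 to -0.22) from 84 and 105 barcodes. The single highest barcode held 10 of the 53 macrophage UMIs in CD4-Cre.

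In the lymph node, CD4-only T cells had 1 of 7 members pass, against 4.84% of all genes. Itgae had 34 UMIs in CD4-Cre and 8 in control, a log2 ratio of 1.14 (0.00 to 2.47), and 1 barcode held 10 of the 34. CD8-only T cells had 1 of 6, against 5.34%, namely Itgb1 at 34.7 CPM against 52.0 CPM, a log2 ratio of -0.59 (-0.85 to -0.32), which lies at the threshold. Relative to the TMM shift of 0.11 in the median of all genes in this gate, it did not pass, and thinned to 1000 UMIs a barcode it was 0.17. Foxp3-positive T cells had 2 of 6, against 5.88%. Itgae was at 24.1 CPM against 41.4 CPM, a log2 ratio of -0.78 (-1.55 to -0.01), and Itgb1 at 88.2 CPM against 150.0 CPM, a ratio of -0.77 (-1.16 to -0.38). Itga4 in the same gate was at 130 and 116 CPM, a ratio of 0.17 (-0.22 to 0.56).

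**Figure D5:**
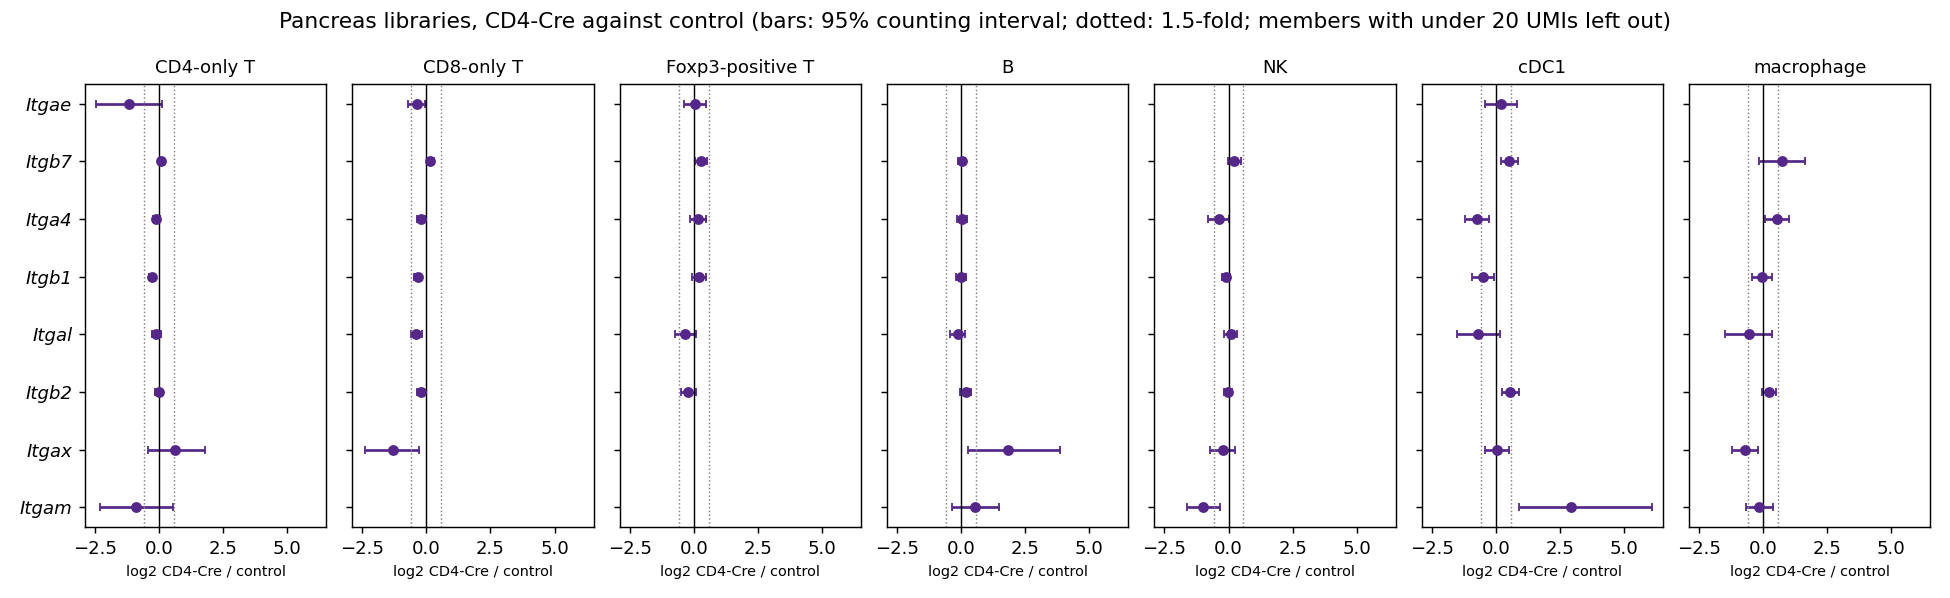
Genotype ratios in the pancreas (x axis, log2 of CD4-Cre divided by control) for each integrin gene with at least 20 UMIs (y axis) in 7 gates, with 95% counting intervals; dotted lines mark 1.5-fold. Most points lie near 0, and those farthest out are Itgam in cDC1 (2.95), Itgax in B cells (1.83) and Itgax in CD8-only T cells (-1.31), each from fewer than 40 UMIs.

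The genes whose pattern was most like that of each member were ranked by Pearson's r of log2 levels over 21 profiles, each a gate in a library with at least 20 barcodes, among 9887 genes. The profiles share libraries and depth, so r is a description. Itgb1 was most like Lgals1 (0.93), which encodes galectin-1, S100a10 (0.91) and Tmem2 (0.91). Itga4 was most like Akap13 (0.86), Atxn1 (0.86) and Crmp1 (0.83), and Itgb7 like Cnn2 (0.95), Pabpc1 (0.94) and Nudt21 (0.94). Itgal was most like Il18r1, Spata13 and Il2rb (0.95 each), where Il18r1 and Il2rb encode cytokine receptor chains of NK and T cells. Itgb2 was most like Lasp1 (0.94), Myl6 (0.93) and Camk2g (0.92), of which Lasp1 and Myl6 encode proteins of the actin cytoskeleton. Itgax was most like Apobr, Olfm1 and S100a1 (0.96 each) and Itgam like Plekhg3, Fcgr3 and Gas7 (0.94 each), with Fcgr3 encoding an Fc receptor of myeloid and NK cells. Itgae had no close match, with Fam241a and Pmepa1 at 0.77 each.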

How the data were processed

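The deposited files hold UMI counts per gene and cell barcode, made by the authors with Cell Ranger on mm10, per the submitters' processing notes, and written by matrix software 3.0.0, per the file headers. Each of the 4 groups is 1 library for all its mice, per the labels. Barcodes with at least 500 genes and at most 10% mitochondrial UMIs were kept. Doublets were scored against simulated pairs in each library, and 0.8% for each 1000 listed barcodes were removed. A gate needed at least 2 UMIs of its markers (4 for C1q genes, 10 for S100a8 and S100a9) and few of the other lineages' markers (under 2 UMIs, or under 4 of C1q genes for dendritic cells and neutrophils). T cells were not excluded by NK markers, nor any gate by neutrophil or cDC2 markers. The markers were genes including Cd79a, Cd79b and Ms4a1 for B cells, Ncr1, Klre1, Klri2 and Eomes for NK cells, Xcr1, Clec9a, Tlr3 and Cadm1 for cDC1, and C1qa, C1qb and C1qc with a further macrophage gene, such as Csf1r or Adgre1, for macrophages. Some genes of the marker lists, and 1 gene ranked as most like a member, are not reported here.

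Levels were read in gates of at least 20 barcodes. Shares have Clopper-Pearson intervals, and a ratio against 0 used a floor of 3 counts in the library at 0. Genes most like a member were the 3 with the highest r, among genes of at least 200 UMIs, with a pseudocount of 10 CPM. All members are named, and other genes come from lists. The members and lists were chosen with earlier results of these data known. The ratio rule was run on simulated Poisson counts with known fold changes. These hold counting error alone, so they check the computation and not the spread between cells, mice or libraries. The effects of 19 alternatives, and of 2 added after seeing the data, are given in the closing section. Gene positions were read from GENCODE M21 and promoters from RefSeq. Python 3.11.15, numpy 2.4.6, scipy 1.17.1, pandas 2.3.3, scikit-learn 1.9.0, R 4.3.3, edgeR 4.0.16 and DESeq2 1.42.0 were used, the last pair for size factors alone.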

Additional observations from a re-analysis of the deposited data

Results flagged for a closer look

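The Itgb7 ratios of CD4-Cre to control had opposite signs in the 2 tissues. For CD8-only T cells the log2 ratio of CD4-Cre to control was 0.14 (0.01 to 0.28) in the pancreas and -0.18 (-0.26 to -0.11) in the lymph node. For Foxp3-positive T cells it was 0.28 (0.05 to 0.50) in the pancreas and -0.22 (-0.42 to -0.02) in the lymph node. The medians over all genes were -0.03 and -0.11 in CD8-only T cells of pancreas and lymph node. In Foxp3-positive T cells they were 0.04 and -0.05. With DESeq2 size factors the lymph node CD8-only ratio was -0.07, so part of it went with the scaling. All 4 ratios were under 1.5-fold, and each rests on 1 library against 1, so the difference between tissues was not tested.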

How the results depend on the processing

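No paired analysis was possible because each group has 1 library and the result comes from no test. Of 2014 member ratios recomputed under the alternatives, 1867 moved by less than their counting interval, 142 moved farther and 5 of those called turned sign. The 5 are Itgax in B cells at -0.22 without the exclusion of other lineages, Itga4 in cDC1 at 0.61 and lymph node CD8-only Itgb1 at 0.17 when thinned to 1000 UMIs, and CD8-only CD4-Cre Itgal between tissues at -1.05 (naive-gated) and -0.28 (antigen-experienced-gated). The Itgal values use the states as first drawn. Between tissues, the number of members higher in pancreas changed under these alternatives: CD4-only T cells had 4 without the exclusion of other lineages, 3 with Foxp3 barcodes included (Itgae added) or with no minimum of UMIs (Itgax added) and 1 (Itgb1) among naive-gated barcodes as first drawn. CD8-only T cells had 4 with doublets kept, all barcodes, no lineage exclusion or no minimum (Itgax added), 2 at 2-fold (Itgal lost), 0 among naive-gated barcodes as first drawn and 1 (Itgb1) with the states drawn after seeing the data, which also gave 1 lower (Itgae). Foxp3-positive T cells had 2 with thinning and among naive-gated barcodes (Itgae lost), and the latter gave 1 lower (Itgb2) under both drawings. Over the 18 alternatives outside the states the Itgb1 ratio for CD4-only T cells ranged from 2.74 to 3.12 (control) and 2.34 to 2.73 (CD4-Cre), and from 2.56 to 3.59 and 2.67 to 3.06 for CD8-only T cells.

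Counts of members that passed between genotypes changed as follows, and the cause was not tested. In pancreas CD4-only T cells the count became 1 with all listed barcodes. In pancreas CD8-only T cells it became 0 without lineage exclusion, from Cd8b1 alone, with a pseudocount of 10 CPM or without the highest barcode of each library (chosen after seeing the data), and 2 with equal weight per barcode or thinning. In pancreas Foxp3-positive T cells it became 1 with doublets kept or at least 2 Foxp3 UMIs and 2 without lineage exclusion. In B cells it became 0 with doublets kept, all barcodes, thinning, the pseudocount or without the highest barcodes, and 2 with equal weight. In NK cells it became 2 without lineage exclusion and 0 with thinning or a 2-fold rule. In cDC1 it became 0 with thinning, 1 at 2-fold and 3 without the highest barcodes (Itgam lost, Itgb7 and Itgb2 added), and in macrophages 2 without lineage exclusion, 3 with equal weight and 0 at 2-fold. Itgam in cDC1 was lost by the same minimum of UMIs, at a log2 ratio of 3.41. In the lymph node, the CD4-only count became 0 with doublets kept, all barcodes, at most 5% mitochondrial UMIs, Foxp3 barcodes included, thinning, the pseudocount or without the highest barcodes, and 2 with equal weight. The CD8-only count there became 0 under 13 of the alternatives, among them TMM, DESeq2 size factors, thinning and totals without receptor, ribosomal, mitochondrial, exocrine and islet genes. The Foxp3-positive count became 1 with all barcodes, TMM, DESeq2 size factors, those totals or without the highest barcodes, and 0 at 2-fold. Counts were low for Itgae in CD4-only T cells and for Itgax and Itgam in all T cells, which rested on 35 UMIs or fewer a library.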

Other observations

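Pancreas cDC2 were not part of the comparisons above. Itgae, which marks some intestinal dendritic cells, was at 48.3 CPM (35.2 to 64.7) in control, from 45 UMIs in 8 of 76 barcodes, and at 9.54 CPM (4.57 to 17.5) in CD4-Cre, from 10 UMIs in 4 of 83 barcodes, a log2 ratio of -2.34 (-3.50 to -1.33). The counts lay in few barcodes of 1 library each.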
